A study of Homo sapiens with 12 samples.

Results

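The genes described here are the 77 human genes of the deposited tables whose symbol is MRPL or MRPS followed by a number, the names given to the nuclear genes for proteins of the mitochondrial ribosome. They were found by symbol among the 37247 Ensembl identifiers that the table of each cell line holds. Of these genes, 51 encode proteins of the large subunit, 25 encode proteins of the small subunit, and MRPS36 encodes a protein that is now assigned to the alpha-ketoglutarate dehydrogenase complex. The name table has 78 symbols of this form, and MRPS18B is not analysed here. TPC-1 is a papillary thyroid cancer line and LC-2/ad a lung cancer line, both known to carry a fusion of the RET gene, and selpercatinib is a drug that blocks the kinase activity of RET. RNA-seq was done on 4 groups of 3 libraries, 12 in all. These were TPC-1 cells kept in 100 nM selpercatinib for 48 h, TPC-1 parent cells, LC-2/ad cells kept in the drug at the same concentration and for the same time, and LC-2/ad parent cells. The labels give the treatment of parent cells as none, without naming a solvent control. All groups grew in medium with fetal bovine serum, and each line stands for a single tumour. The labels leave out if the 3 libraries are separate cultures, so the p-values given here cover the library-to-library spread, which could be technical alone.

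Mitochondria hold their own ribosome, which makes the few proteins encoded in mitochondrial DNA, all of them core subunits of the respiratory chain and of ATP synthase. Its ribosomal RNAs come from mitochondrial DNA, whereas its proteins are encoded in the nucleus, made in the cytosol and imported. Some of these proteins descend from those of bacterial ribosomes and others were added during the evolution of mitochondria. In tumour cells the supply of respiratory chain subunits depends on this machinery.

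The values were TPM, a transcript level that is scaled by gene length and sums to 1000000 in every library. Sequencing depth cannot be read from them. Between 12554 and 12967 genes reached 1 TPM in the TPC-1 libraries, and between 13713 and 14336 in the LC-2/ad libraries. The lung marker NKX2-1 was listed at 0 in all TPC-1 libraries and averaged 140 TPM in treated and 110 TPM in parent LC-2/ad cells, where NAPSA averaged 34.9 and 33 TPM. The thyroid marker PAX8 averaged 271 TPM in treated and 190 TPM in parent TPC-1 cells, and 21.9 TPM in treated and 14.8 TPM in parent LC-2/ad cells. Other markers did not separate the lines by tissue. FOXE1, of the thyroid list, averaged 9.27 TPM in treated and 9.11 TPM in parent TPC-1 cells, and 36.2 TPM in treated and 11.6 TPM in parent LC-2/ad cells. KRT7, of the lung list, averaged 2657 TPM in treated and 2034 TPM in parent TPC-1 cells, and 3376 TPM in treated and 2441 TPM in parent LC-2/ad cells. Thyroglobulin (TG) averaged below 1 TPM in TPC-1 cells and surfactant protein B (SFTPB) below 1 TPM in LC-2/ad cells, unlike NAPSA in that line. Of 11 markers of blood, vessel, stromal and liver cells, 6 were below 1 TPM in every library, among them PTPRC, and HBB was listed at 0 in all of them. Their summed level, mostly COL1A1 and CD68, ranged from 44.8 to 56.1 TPM in treated and 46.4 to 48 TPM in parent TPC-1 cells, and from 45.8 to 51.9 TPM in treated and 41.7 to 47.9 TPM in parent LC-2/ad cells. Among them CDH5 and LUM passed the test as higher in treated LC-2/ad cells, with 3.63 and 2.12 TPM in treated and 2.07 and 0.495 TPM in parent cells (limma adjusted p of 0.00663 and 0.00231). CD68 passed as lower, with 6.38 TPM in treated and 9 TPM in parent cells (adjusted p = 0.0358). Their part in the results below was not tested.

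The promoters of 6 genes are shown, chosen in part for their values and in part for their motifs. MRPL12, MRPL42, MRPL51 and MRPL3 are among the 6 members with the largest falls in treated LC-2/ad cells. MRPL35 and MRPL37, also among those 6, are not shown. MRPL36 holds 3 of the 4 motifs that were searched, as does MRPL22, and MRPS21 is the single member that passed the test in the upward direction. Each sequence runs 5′ to 3′ on the strand of its gene, with 250 bases before and 50 after the transcription start, and comes from RefSeq, build GRCh38.p14. Capitals mark a match to one of the motifs.
MRPL12 promoter, chr17:81703117-81703416, plus strand: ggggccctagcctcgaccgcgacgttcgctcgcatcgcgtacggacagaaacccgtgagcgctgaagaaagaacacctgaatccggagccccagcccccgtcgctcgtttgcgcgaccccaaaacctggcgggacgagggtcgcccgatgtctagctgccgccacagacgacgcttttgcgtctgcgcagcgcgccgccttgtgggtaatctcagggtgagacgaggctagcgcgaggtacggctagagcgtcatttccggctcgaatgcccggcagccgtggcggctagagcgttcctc
MRPL42 promoter, chr12:93467264-93467563, plus strand: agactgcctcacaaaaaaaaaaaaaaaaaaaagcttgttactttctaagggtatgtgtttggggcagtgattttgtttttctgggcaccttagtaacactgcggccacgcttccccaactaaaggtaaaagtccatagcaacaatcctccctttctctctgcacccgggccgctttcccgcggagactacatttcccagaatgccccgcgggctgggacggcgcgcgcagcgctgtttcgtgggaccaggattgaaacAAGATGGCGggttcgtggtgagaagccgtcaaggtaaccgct
MRPL51 promoter, chr12:6493213-6493512, minus strand: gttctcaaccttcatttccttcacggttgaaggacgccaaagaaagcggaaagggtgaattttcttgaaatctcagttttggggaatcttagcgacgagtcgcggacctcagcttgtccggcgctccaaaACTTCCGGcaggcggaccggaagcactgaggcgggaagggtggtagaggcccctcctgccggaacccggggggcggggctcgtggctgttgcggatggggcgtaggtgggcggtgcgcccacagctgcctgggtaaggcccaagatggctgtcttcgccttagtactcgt
MRPL3 promoter, chr3:131502922-131503221, minus strand: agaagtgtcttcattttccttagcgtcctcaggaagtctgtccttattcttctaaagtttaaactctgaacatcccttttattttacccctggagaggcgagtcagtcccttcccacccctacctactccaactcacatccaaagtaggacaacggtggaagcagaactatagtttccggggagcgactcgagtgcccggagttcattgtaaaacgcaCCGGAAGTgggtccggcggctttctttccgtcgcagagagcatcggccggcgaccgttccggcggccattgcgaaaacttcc
MRPL36 promoter, chr5:1799788-1800087, minus strand: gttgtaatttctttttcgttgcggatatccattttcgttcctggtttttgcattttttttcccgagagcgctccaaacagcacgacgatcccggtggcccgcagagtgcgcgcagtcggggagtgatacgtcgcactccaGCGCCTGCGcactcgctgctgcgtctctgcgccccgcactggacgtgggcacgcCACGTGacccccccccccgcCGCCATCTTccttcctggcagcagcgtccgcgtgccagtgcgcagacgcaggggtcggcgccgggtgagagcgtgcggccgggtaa
MRPS21 promoter, chr1:150293611-150293910, plus strand: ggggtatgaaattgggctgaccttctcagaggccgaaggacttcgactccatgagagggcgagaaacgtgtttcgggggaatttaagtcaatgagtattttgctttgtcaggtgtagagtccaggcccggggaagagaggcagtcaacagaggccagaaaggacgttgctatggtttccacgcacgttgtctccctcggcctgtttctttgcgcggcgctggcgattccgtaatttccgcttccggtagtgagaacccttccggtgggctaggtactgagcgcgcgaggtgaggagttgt

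The motifs were those of factors known to act on nuclear genes for mitochondrial proteins, searched as strings on both strands. They were the core of the NRF1 motif (GCGCNTGCG), the ETS motif that GABP binds (CCGGAAGT), the YY1 motif (AAGATGGCG) and the E-box of MYC (CACGTG). None of the 4 strings contains another. In the sequences above, MRPL3 has the ETS motif from 32 to 25 bases before the start and MRPL51 has it on the other strand from 120 to 113 bases before. MRPL42 has the YY1 motif from 8 to 16 bases after the start. MRPL36 has the NRF1 core from 110 to 102 bases before the start, the E-box from 56 to 51 bases before, and the YY1 motif on the other strand from 36 to 28 bases before. MRPL12 and MRPS21 have none of the 4 strings in this window.

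Of the members, 68 had a promoter in the RefSeq table, and the first one listed was read for each symbol. More than 1 promoter was listed for 11 of them. The promoters of all genes include those of genes not tested in these lines. They were not matched to the members for transcript level or base composition. The NRF1 core was found in 11 of the 68 promoters (16.2%), against 8.05% of all 27305 promoters of the same length. The ETS motif was found in 11 (16.2%), against 4.44% of all promoters, and the YY1 motif in 12 (17.6%), against 1.85%. The E-box was found in 6 (8.82%), against 7.43%. At least 1 of the motifs was present in 31 members (45.6%), against 18.9% of all promoters. In treated LC-2/ad cells the median log2 fold change was -0.31 for 10 tested members with the NRF1 core and -0.33 for 57 without it. It was -0.34 with the ETS motif and -0.33 without it, and -0.32 with the YY1 motif and -0.33 without it. For the E-box it was -0.50 over 5 members and -0.32 over 62 without it. A match is a description of these letters, and binding of the factors was not measured.

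In LC-2/ad cells the RNAs for mitochondrial ribosomal proteins were lower after selpercatinib across most of both subunits. Of 76 members tested, 63 (82.9%) fell, 1 rose and 12 did not pass the test (limma on log2(TPM + 1), Benjamini-Hochberg adjusted p under 0.05). Over all 14118 genes tested in this line 55.0% passed the test, 24.4% as falls and 30.6% as rises, and among tested genes with a mean of at least 10 TPM 32.0% fell, a level that 75 members reached and at which 62 of them fell. The median log2 fold change was -0.34 over the members and 0.07 over all genes tested, and the members that fell ranged from -0.81 to -0.16. A fall of 0.5 or more on the log2 scale was reached by 14 of them and a fall of 1 by none. The 3 treated libraries lay below the 3 parent libraries for 64 members, against 27.6% of all genes tested. In bulk RNA, fewer cells of a kind and less RNA per cell cannot be told apart.

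Summed over all 77 genes, the treated LC-2/ad libraries held 4918, 4853 and 4841 TPM, against 6127, 6275 and 6228 TPM in parent libraries. The groups did not overlap, and the treated mean of 4871 ± 41.5 TPM was 78.4% of the parent mean of 6210 ± 75.6 TPM (SD, n = 3 each). Large-subunit genes summed to 3416 ± 36.1 TPM in treated and 4387 ± 77.8 TPM in parent cells (77.9%), and small-subunit genes to 1446 ± 17.4 TPM in treated and 1811 ± 16.7 TPM in parent cells (79.8%). The ratio of the large-subunit sum to the small-subunit sum was 2.36 ± 0.0367 in treated and 2.42 ± 0.0527 in parent cells, and its values overlapped. RNAs of mitochondrial DNA took a larger share of the total at the same time, 14.6% ± 0.49 in treated and 9.77% ± 0.0507 in parent LC-2/ad cells, and TPM add up to a fixed total. With the genes of mitochondrial DNA taken out of the total, the members summed to 5701 ± 62.2 TPM in treated and 6883 ± 86.5 TPM in parent cells, or 82.8%, and 54 of the members passed the test as lower.

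**Figure D1:**
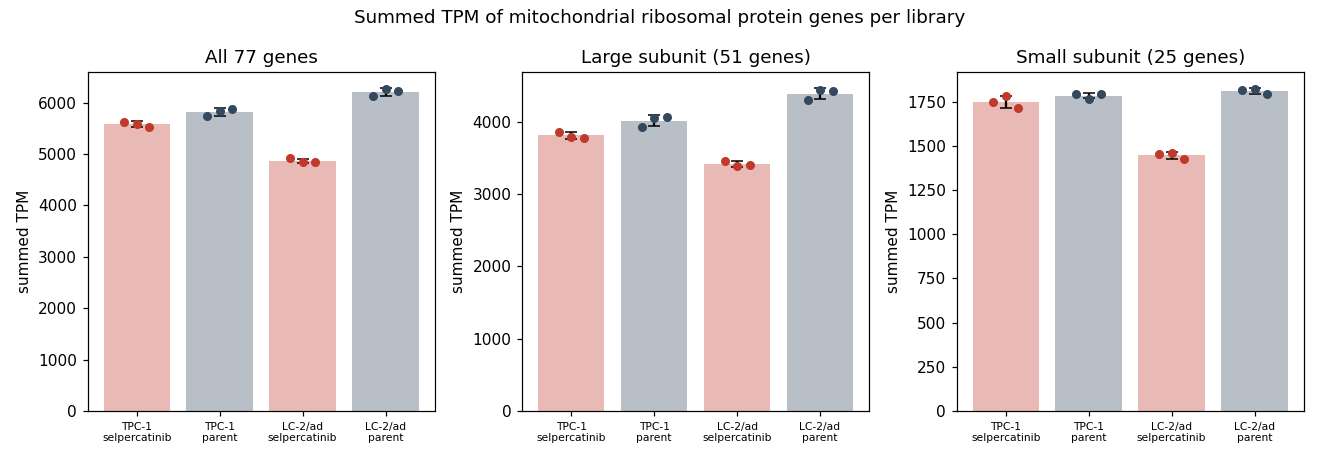
Summed TPM per library (y axis, from 0) of all 77 genes, of the 51 large-subunit genes and of the 25 small-subunit genes, in treated and parent TPC-1 cells and in treated and parent LC-2/ad cells (bars: mean of 3 libraries with SD; points: libraries). In LC-2/ad cells the treated libraries sum to between 4841 and 4918 TPM and the parent libraries to between 6127 and 6275 TPM, while in TPC-1 cells the treated libraries lie between 5519 and 5630 TPM and the parent libraries between 5739 and 5878 TPM.

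Both subunits and both kinds of protein took part in the change in LC-2/ad. Over all genes tested in this line 24.4% fell and 30.6% rose, and 32.0% fell among those with a mean of at least 10 TPM. Of the large-subunit proteins with a bacterial homolog, 25 of 30 fell (median -0.35), and of those specific to mitochondria 18 of 20 tested fell (median -0.34). MRPS18A, a large-subunit descendant of the bacterial protein S18, was counted with those specific to mitochondria. Of the small-subunit proteins with a bacterial homolog, 13 of 16 fell and 1 rose (median -0.31), and of those specific to mitochondria 6 of 9 fell (median -0.30). MRPS36 fell by 0.35 ± 0.12 (log2 fold change ± SE, adjusted p = 0.0433). That call was lost when any library but parent library 3 was left out, with an adjusted p of 0.0502 to 0.133, without the genes of mitochondrial DNA (adjusted p = 0.0885), with no filter (adjusted p = 0.0974) and with no variance trend (adjusted p = 0.055).

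Among the large-subunit proteins with a bacterial homolog, MRPL12 forms the flexible stalk that recruits translation factors. It had 166, 161 and 167 TPM in LC-2/ad libraries after treatment, against 278, 277 and 280 TPM in parent libraries, so the treated libraries sat far below the parent libraries and varied little. Its log2 fold change was -0.75 ± 0.03 (limma adjusted p = 1.43e-06), which left 59.2% of the parent mean. It lies on chromosome 17 at chr17:81703357-81707526 (GRCh38, plus strand), where an unnamed gene on the same strand shares exon sequence. MRPL35, another protein of the large subunit, had 30.1, 23.9 and 27.7 TPM in treated libraries, against 49.6, 51 and 44.3 TPM in parent libraries. This was the largest fall among the members, -0.81 ± 0.09 (adjusted p = 0.000198), and all treated values were below all parent values.

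MRPL3, a core protein close to the site of peptide bond formation, had 114, 103 and 111 TPM in treated libraries, against 174, 166 and 171 TPM in parent libraries. It fell by 0.63 ± 0.05 on the log2 scale (adjusted p = 2.15e-05), to 64.3% of the parent mean, with no overlap of the groups. Its gene is at chr3:131462212-131502983 on the minus strand. The proteins at the base of the stalk behaved unequally. MRPL11 had 60.6, 61.8 and 61.2 TPM in treated libraries, against 92.6, 94.7 and 89.8 TPM in parent libraries, a fall of 0.59 ± 0.04 (adjusted p = 1.59e-05). MRPL10, which anchors MRPL12 to the ribosome, had 73.1, 58.7 and 74.2 TPM in treated libraries, against 75.3, 68.5 and 73.9 TPM in parent libraries. These overlapped, and its log2 fold change was -0.08 ± 0.09 (adjusted p = 0.459).

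MRPL22 and MRPL4 line the tunnel through which the new protein leaves. MRPL22 had 48.1, 47.3 and 49.7 TPM in treated libraries, against 67.8, 68.4 and 69.7 TPM in parent libraries, and fell by 0.50 ± 0.04 (adjusted p = 4.96e-05). MRPL4 had 37.5, 39.1 and 37.1 TPM in treated libraries, against 57.2, 56.2 and 53.8 TPM in parent libraries, and fell by 0.54 ± 0.05 (adjusted p = 5.93e-05). Both were separated completely between the groups. MRPL36, whose promoter is shown above, had 109, 106 and 104 TPM in treated libraries, against 144, 148 and 157 TPM in parent libraries, and fell by 0.49 ± 0.04 (adjusted p = 5.93e-05).

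Proteins of the large subunit listed as specific to mitochondria included 3 of the 6 largest falls. MRPL42 had 62.7, 70.2 and 57.8 TPM in treated libraries, against 104, 104 and 110 TPM in parent libraries, and its log2 fold change was -0.73 ± 0.07 (adjusted p = 8.37e-05). MRPL37 had 56.8, 57.2 and 55.9 TPM in treated libraries, against 92.3, 93.4 and 90.7 TPM in parent libraries, a change of -0.69 ± 0.04 (adjusted p = 5.39e-06). MRPL51 had 122, 129 and 128 TPM in treated libraries, against 192, 210 and 204 TPM in parent libraries, a change of -0.67 ± 0.05 (adjusted p = 1.32e-05). In each of these 3 the treated libraries were below every parent library, at 60%, 61.5% and 62.6% of the parent mean. The genes are at chr12:93467488-93516213 on the plus strand (MRPL42), chr1:54184041-54225464 on the plus strand (MRPL37) and chr12:6491886-6493841 on the minus strand (MRPL51). The last 2 overlap exons of genes on the other strand, and the counting is not stated to use strand, so their values are uncertain to that extent.

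Smaller falls were seen for MRPL58 and MRPL41. MRPL58, a peptidyl-tRNA hydrolase built into the large subunit that releases stalled chains, had 92.6, 92.3 and 103 TPM in treated libraries, against 112, 132 and 128 TPM in parent libraries (-0.37 ± 0.07, adjusted p = 0.00352). MRPL41 had 31.9, 33.7 and 35.4 TPM in treated libraries, against 37.5, 40.3 and 37.3 TPM in parent libraries (-0.19 ± 0.06, adjusted p = 0.0323). Neither gene's groups overlapped. The call of MRPL41 was lost when any library but treated library 3 was left out, with an adjusted p of 0.0508 to 0.108, and without the genes of mitochondrial DNA, where the change was -0.11 (adjusted p = 0.163). MRPS30, which carries a small-subunit name but sits in the large subunit, had 49.4, 50.2 and 48.9 TPM in treated libraries, against 64.6, 64 and 65.5 TPM in parent libraries (-0.38 ± 0.04, adjusted p = 0.000157).

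In the small subunit, MRPS12, a protein of the decoding centre, had 64.6, 61.3 and 54.6 TPM in LC-2/ad libraries after treatment, against 85.8, 88.4 and 85.7 TPM in parent libraries. It fell by 0.52 ± 0.06 (adjusted p = 0.000287). Its gene overlaps exons of SARS2, the mitochondrial seryl-tRNA synthetase, on the other strand. MRPS24 had 170, 176 and 179 TPM in treated libraries, against 219, 217 and 219 TPM in parent libraries, and fell by 0.32 ± 0.03 (adjusted p = 0.00013). The groups of both genes were separate. A read-through gene, URGCP-MRPS24, shares exons with MRPS24, so reads may be split between them.

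Human cells have several descendants of the bacterial ribosomal protein S18, of which MRPS18A sits in the large and MRPS18C in the small subunit. MRPS18A had 61.4, 64.3 and 61.1 TPM in treated libraries, against 74.3, 76.1 and 72.1 TPM in parent libraries (-0.25 ± 0.04, adjusted p = 0.00215). MRPS18C had 44.6, 46.9 and 37.8 TPM in treated libraries, against 67.5, 61.6 and 57.1 TPM in parent libraries (-0.52 ± 0.09, adjusted p = 0.00209). Both fell without overlap of the groups, and the difference between the paralogs was not tested.

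MRPS21, a small-subunit protein with a bacterial homolog, moved the other way. It had 44.1, 46.2 and 44.4 TPM in treated libraries, against 41.4, 41.5 and 37.6 TPM in parent libraries, so all treated values were above all parent values. The rise was 0.16 ± 0.06 (adjusted p = 0.0451), and the call was lost when any single library was left out (adjusted p of 0.0525 to 0.139) and with median-of-ratios scaling, where the change was 0.06 (adjusted p = 0.334). The gene is at chr1:150293720-150308979 on the plus strand.

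The 12 members that did not pass the test in LC-2/ad were MRPL10, MRPL30, MRPL33, MRPL34, MRPL43, MRPL53, MRPL55, MRPS14, MRPS25, MRPS28, MRPS31 and MRPS33, with log2 fold changes of -0.49 to 0.05. MRPL34 had the largest of these changes and the largest SE, -0.49 ± 0.21 (adjusted p = 0.0771), with 38.9, 25.5 and 22.7 TPM in treated libraries, against 32.4, 41.4 and 47.6 TPM in parent libraries. Treated library 1 lay above parent library 1, and without that treated library the change was -0.71 (adjusted p = 0.00788), while without that parent library it was -0.64 (adjusted p = 0.043). Also passed as falls were MRPL55 and MRPS33 without parent library 1 (adjusted p of 0.0342 and 0.0236) and MRPL53 without treated library 1 (adjusted p = 0.0477). MRPL33, the member with the highest level in parent cells, had 343, 348 and 321 TPM in treated libraries, against 287, 342 and 349 TPM in parent libraries. Its groups overlapped and its change was 0.05 ± 0.07 (adjusted p = 0.567). Its annotated span shares exon sequence with BABAM2, so its level is uncertain.

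**Figure D2:**
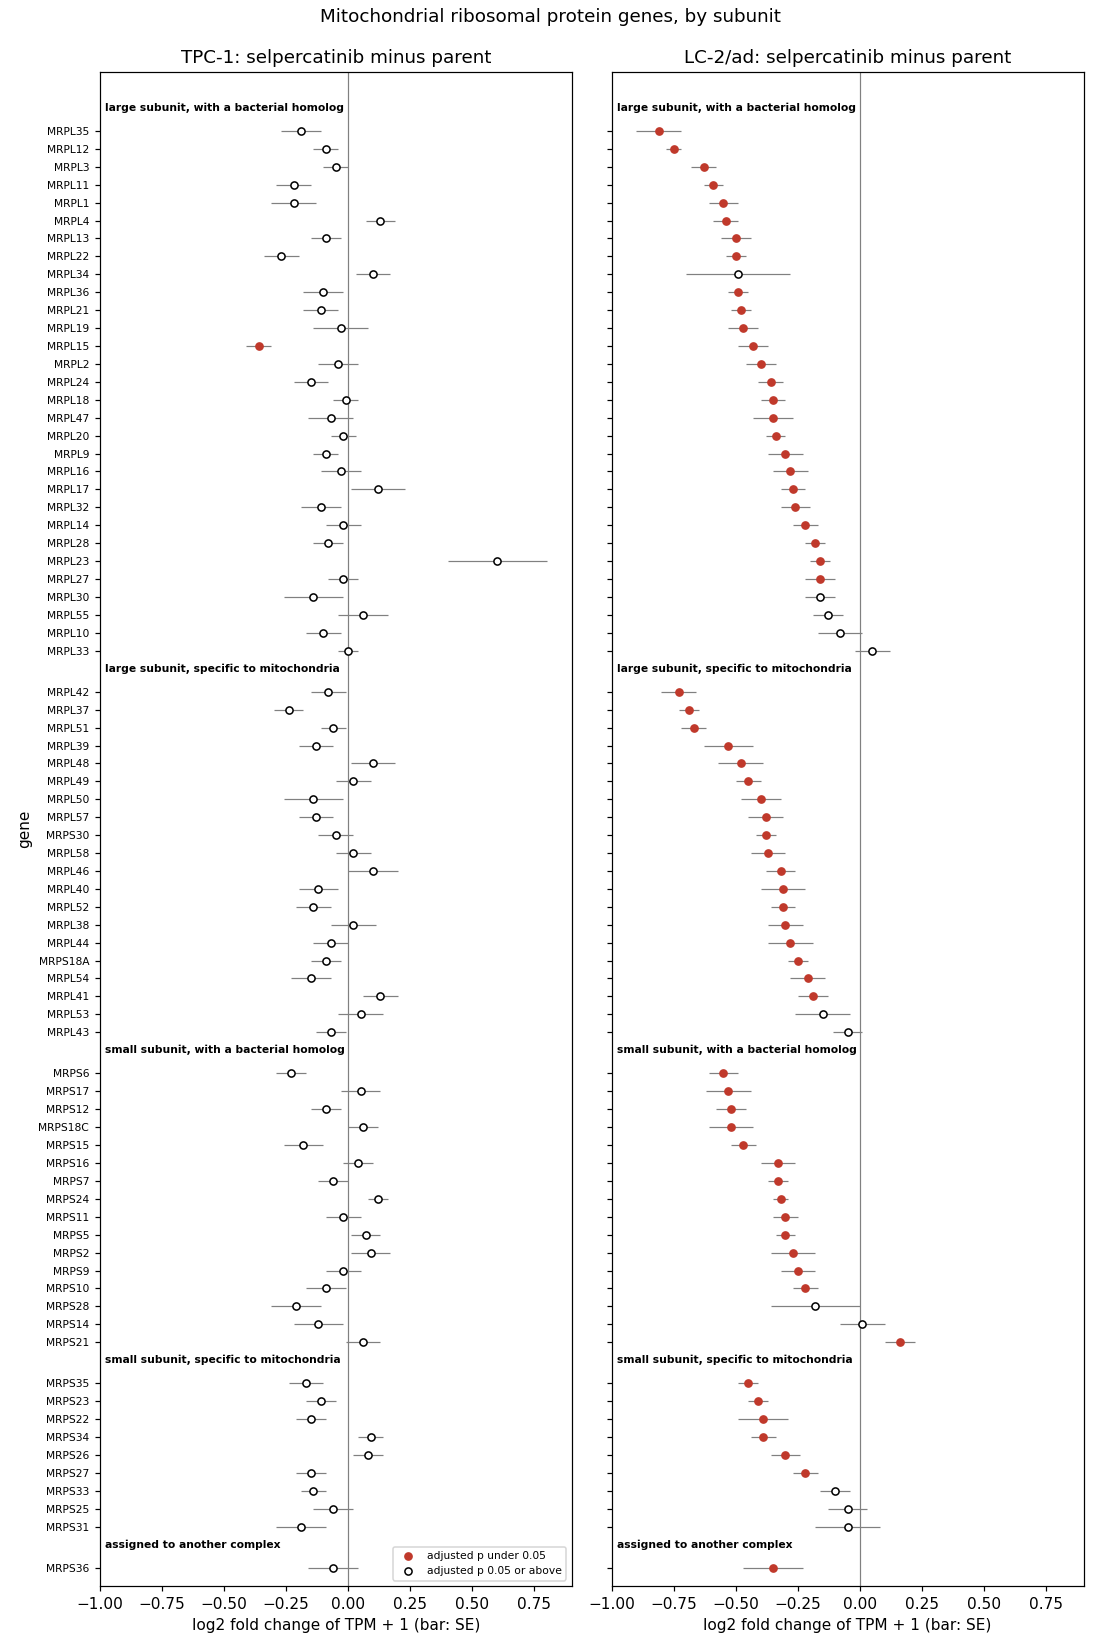
Log2 fold change of TPM + 1, treated minus parent (x axis; bars: SE), of the 76 tested genes in TPC-1 (left) and LC-2/ad (right), grouped by subunit and ordered by the LC-2/ad value. Filled points passed the test: 1 of 76 in TPC-1 (MRPL15), and 64 in LC-2/ad, of which 63 lie left of 0 and MRPS21 lies right of it.

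In TPC-1 cells the same drug, concentration and time gave a call for a single member. MRPL15, a large-subunit protein with a bacterial homolog, fell, and the other 75 members tested did not pass the test in either direction, against 1.21% of all 12825 genes tested in this line that fell and 3.75% that rose (4.96% in all). Among tested genes with a mean of at least 10 TPM 1.49% fell, and so did 1 of 74 members. At an unadjusted p under 0.05 there were 15 of 76 members, 13 of them with a negative change, against 21.5% of all genes tested, 6.67% with a negative one. The median log2 fold change was -0.07 over the members and 0.05 over all genes tested. The treated libraries lay below the parent libraries without overlap for 16 members, against 9.23% of all genes tested, and the groups overlapped for 56. The treated libraries lay above the parent libraries for 4 members, a count for which no share over all genes was taken.

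MRPL15 had 136, 129 and 142 TPM in treated TPC-1 libraries, against 171, 177 and 175 TPM in parent libraries, with every treated value below every parent value. Its log2 fold change was -0.36 ± 0.05 (limma adjusted p = 0.00581), which left 77.9% of the parent mean. Without the trend of variance with level the adjusted p was 0.0507. The same gene had 52.5, 51.8 and 51.5 TPM in LC-2/ad libraries after treatment, against 67.6, 76.6 and 66.8 TPM in parent libraries, and fell there by 0.43 ± 0.06 (adjusted p = 0.000598).

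The next largest changes in TPC-1 missed the threshold. MRPL22 had 45.5, 45.8 and 42.8 TPM in treated libraries, against 49.7, 55.1 and 57.2 TPM in parent libraries (-0.27 ± 0.07, adjusted p = 0.071). MRPL37 had 116, 105 and 111 TPM in treated libraries, against 124, 132 and 137 TPM in parent libraries (-0.24 ± 0.06, adjusted p = 0.0601). Both had all treated values below all parent values, and without parent library 1 both passed the test, with adjusted p of 0.0399 and 0.0442, which made the count 3 members.

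The members with the largest falls in LC-2/ad moved less in TPC-1. MRPL12 had 166, 161 and 156 TPM in treated TPC-1 libraries, against 166, 179 and 169 TPM in parent libraries, and its change was -0.09 ± 0.05 (adjusted p = 0.376). MRPL42 had 45.5, 42.1 and 41.1 TPM in treated libraries, against 43.2, 44.7 and 48.8 TPM in parent libraries (-0.08 ± 0.07, adjusted p = 0.554). MRPL35 had 47.6, 39.9 and 42.4 TPM in treated libraries, against 47.9, 48.9 and 52.1 TPM in parent libraries (-0.19 ± 0.08, adjusted p = 0.199). The groups overlapped for MRPL12 and MRPL42 and were narrowly separate for MRPL35. Summed over all members, treated TPC-1 libraries held 5630, 5591 and 5519 TPM, against 5739, 5834 and 5878 TPM in parent libraries. The treated mean of 5580 ± 56.2 TPM was 95.9% of the parent mean of 5817 ± 71.1 TPM (SD, n = 3 each), with every treated library below every parent library. RNAs of mitochondrial DNA made up 6.33% ± 0.493 of the TPM in treated and 6.97% ± 0.575 in parent TPC-1 cells.

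**Figure D3:**
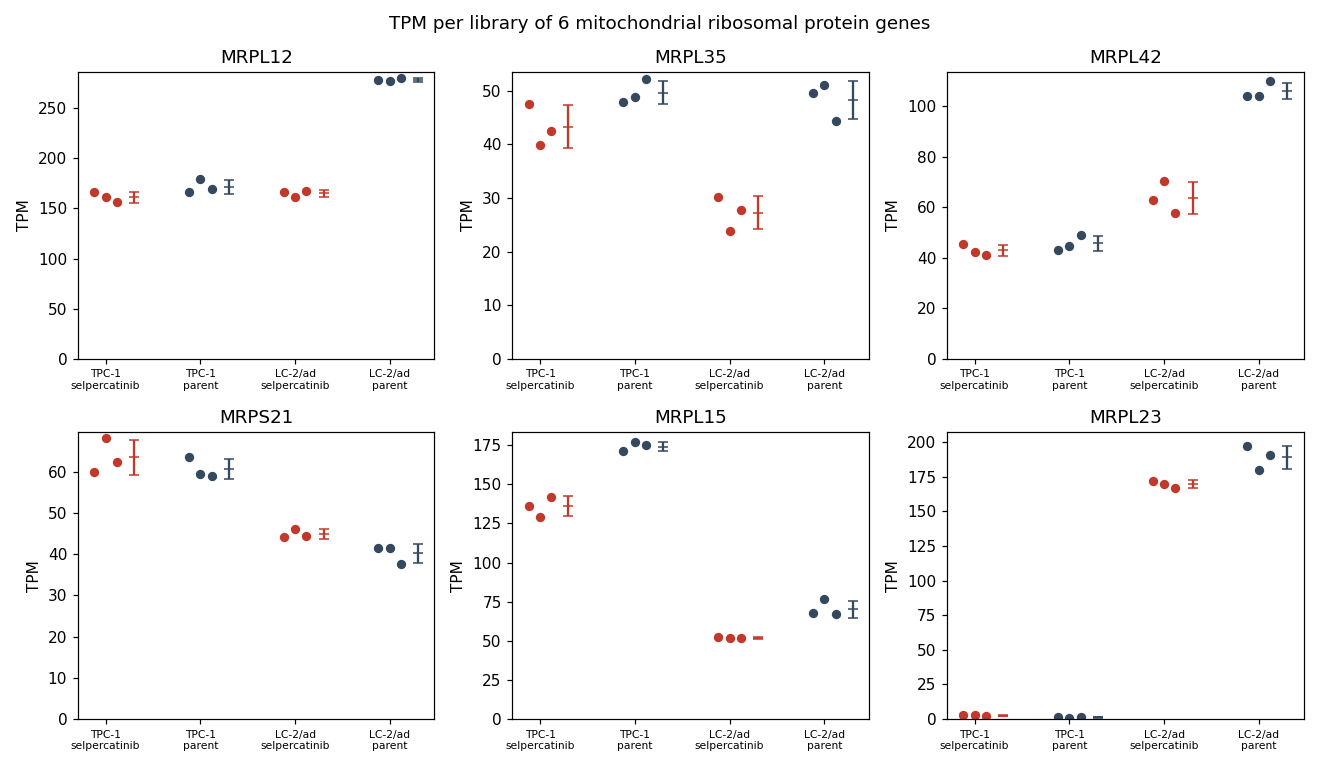
TPM per library (y axes, from 0) of MRPL12, MRPL35, MRPL42, MRPS21, MRPL15 and MRPL23 in treated and parent TPC-1 cells and in treated and parent LC-2/ad cells (points: libraries; horizontal marks with bars: mean with SD of 3 libraries). MRPL12, MRPL35 and MRPL42 are lower in treated than in parent LC-2/ad cells, MRPL15 is lower after treatment in both lines, and MRPL23 lies below 3 TPM in all TPC-1 libraries.

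The difference between the lines was tested on its own, as the treatment effect in TPC-1 minus that in LC-2/ad over all 12 libraries. It was higher in TPC-1 for 40 of 76 members (52.6%) and lower for 0, against 22.2% and 14.4% of the 11996 genes tested (limma, adjusted p under 0.05). At an unadjusted p under 0.05 there were 51 of 76 members, 0 of them negative, against 45.9% of all genes, 18.8% with a negative difference, and no alternative called a member lower. The median difference was 0.29 over the members and 0.04 over all genes, and 67 of 76 members had a positive one. By subunit, 26 of 50 large-subunit and 14 of 25 small-subunit genes passed. With the genes of mitochondrial DNA taken out of the total 30 members passed.

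Of the members with a bacterial homolog in the large subunit, MRPL4 had 91.3, 87.7 and 82.5 TPM in treated TPC-1 libraries, against 80.3, 77.1 and 81 TPM in parent libraries. Its treated values were all above its parent values there, opposite to LC-2/ad, and the difference of the effects was 0.68 ± 0.07 (adjusted p = 1.49e-05). The effect in TPC-1 alone was 0.13 ± 0.06 (adjusted p = 0.246). The difference was 0.66 ± 0.06 for MRPL12 (adjusted p = 2.43e-06), 0.58 ± 0.07 for MRPL3 (adjusted p = 1.92e-05) and 0.61 ± 0.13 for MRPL35 (adjusted p = 0.00221). It was 0.36 ± 0.08 for MRPL11 (adjusted p = 0.00306). For MRPL22, which moved down in both lines by value, it was 0.23 ± 0.08 (adjusted p = 0.0409), a call lost in 8 of the 12 fits without 1 library (any LC-2/ad library but treated library 3, treated TPC-1 library 1 or 2, or parent TPC-1 library 1), with an adjusted p of 0.0605 to 0.0853. Among the mitochondria-specific proteins it was 0.65 ± 0.10 for MRPL42, 0.61 ± 0.07 for MRPL51 and 0.45 ± 0.07 for MRPL37 (adjusted p of 0.00033, 1.84e-05 and 0.000307).

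In the small subunit the difference was 0.58 ± 0.11 for MRPS18C (adjusted p = 0.00139), 0.44 ± 0.05 for MRPS24 (adjusted p = 1.9e-05) and 0.43 ± 0.09 for MRPS12 (adjusted p = 0.00181). MRPS24 had 220, 229 and 227 TPM in treated TPC-1 libraries, against 207, 205 and 208 TPM in parent libraries, and MRPS18C had 52.5, 50.5 and 49 TPM in treated, against 48.4, 48.8 and 48.6 TPM in parent libraries. In TPC-1 the treated libraries of both were thus above the parent libraries, by 0.12 ± 0.04 and 0.06 ± 0.06 on the log2 scale, and neither passed the test there (adjusted p of 0.153 and 0.612). For MRPL15 the difference was 0.07 ± 0.08 (adjusted p = 0.531), for MRPS21 -0.10 ± 0.09 (adjusted p = 0.425) and for MRPL10 -0.01 ± 0.12 (adjusted p = 0.943). These values missed the threshold, which does not show equal effects. Across the 76 members the log2 fold changes of the lines had a Pearson correlation of 0.23, and across all 11996 genes 0.20. Each line's values come from the same 6 libraries for every gene.

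**Figure D4:**
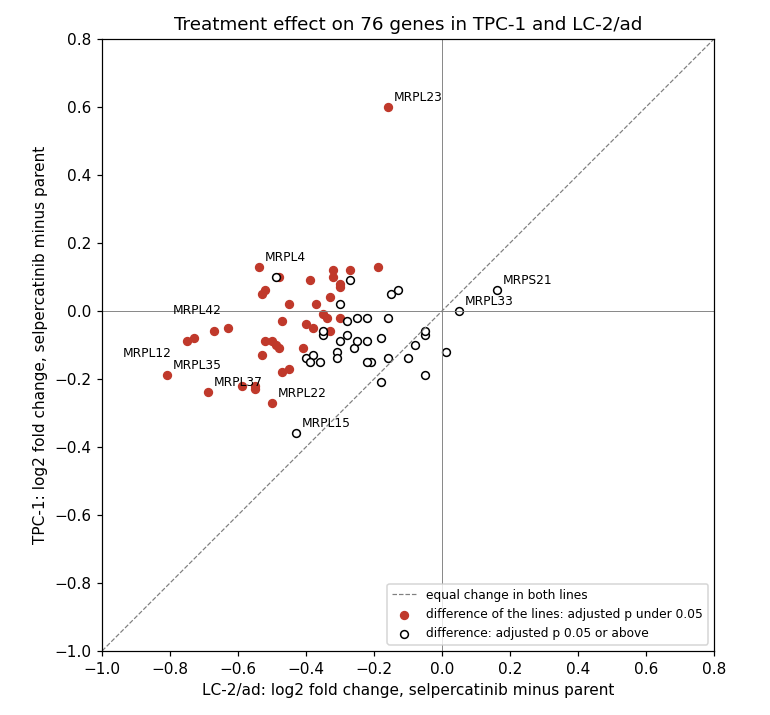
Log2 fold change of TPM + 1, treated minus parent, in TPC-1 (y axis) against LC-2/ad (x axis) for the 76 genes tested in both lines (dashed line: equal change). Filled points are the 40 genes whose difference between the lines passed the test, and they all lie above the dashed line, while MRPL15 lies close to it.

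In untreated cells most members had similar levels in the lines. The median over members was 58.9 TPM in TPC-1 and 65.3 TPM in LC-2/ad parent cells. The order of the members was similar (Spearman correlation of 0.75 over 76 members). Between the lines, 71 of the 76 lay within a factor of 2 and 55 within a factor of 1.5. These values were not set against those of all genes. MRPL33 was highest in both, with 246 ± 4.96 TPM in TPC-1 and 326 ± 34.1 TPM in LC-2/ad parent cells (SD, n = 3 each). In TPC-1 it was followed by MRPL52 at 214 ± 7.64 TPM and MRPS24 at 207 ± 1.84 TPM, which did not differ beyond their spread. In LC-2/ad it was followed by MRPL12 at 278 ± 1.73 TPM and MRPS24 at 218 ± 1.06 TPM. MRPL50 was among the lowest, at 8.33 ± 0.931 TPM in TPC-1 and 10.9 ± 0.381 TPM in LC-2/ad parent cells, as was MRPS36 in LC-2/ad, at 11.9 ± 1.79 TPM.

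Of the members, 2 stood apart by level. MRPL45, a large-subunit protein that tethers the ribosome to the inner membrane, was listed at 0 in 11 of the 12 libraries and at 0.13 TPM in treated TPC-1 library 3, and was not tested. MRPL23, which lies at the exit of the protein tunnel, had 2.64, 2.65 and 1.94 TPM in treated TPC-1 libraries, against 1.47, 0.785 and 1.54 TPM in parent libraries. In LC-2/ad it had 172, 170 and 167 TPM in treated libraries, against 197, 180 and 191 TPM in parent libraries, the fall being 0.16 ± 0.04 (adjusted p = 0.0143). That call was lost without the genes of mitochondrial DNA, where the change was -0.08 (adjusted p = 0.144), and with no variance trend (adjusted p = 0.0554). Its change in TPC-1 was 0.60 ± 0.20 on the log2(TPM + 1) scale (adjusted p = 0.132), with 0.92 at a pseudocount of 0.1 and 0.24 at a pseudocount of 5, and the difference between the lines of 0.76 ± 0.18 (adjusted p = 0.00477) rests on libraries near the filter of 1 TPM, with 1.07 and 0.39 at those pseudocounts. These proteins belong to every mitochondrial ribosome, so the near-absent values are treated as uncertain. The tables also hold 2627 identifiers with neither a symbol nor an entry in the annotation, which took 2.63% to 2.86% of the TPM, and whether these hold reads of the 2 genes was not tested. The gene MRPL23 is at chr11:1947278-1984522 and MRPL45 at chr17:38297023-38323218, both on the plus strand.

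Proteins of the mitochondrial ribosome without an MRPL or MRPS symbol all passed as falls in LC-2/ad, 5 of 5. Over all genes tested in this line 24.4% fell, and 3 of the 5 calls were lost in several fits, as given below. AURKAIP1, in the small subunit, averaged 107 ± 2.71 TPM in treated and 148 ± 7.36 TPM in parent cells (-0.46 ± 0.05, adjusted p = 0.000102). GADD45GIP1, in the large subunit, averaged 21 ± 0.393 TPM in treated and 27.9 ± 0.668 TPM in parent cells (-0.39 ± 0.05, adjusted p = 0.000592). PTCD3, CHCHD1 and DAP3, all of the small subunit, fell by 0.29, 0.21 and 0.14 (adjusted p of 0.0484, 0.0223 and 0.0449). These last 3 calls were each lost in several fits without 1 library: PTCD3 without any library but treated library 2, DAP3 without library 2 or 3 of either group, and CHCHD1 without parent library 2 or 3 or treated library 3. The adjusted p then lay between 0.0587 and 0.136. Without the genes of mitochondrial DNA the changes were -0.21, -0.13 and -0.06 for PTCD3, CHCHD1 and DAP3 (adjusted p of 0.115, 0.102 and 0.314). The calls of PTCD3 and DAP3 were also lost with no filter or no variance trend. In TPC-1 none of the 5 passed the test, with a median of -0.06, also at an unadjusted p under 0.05 (0 of 5).

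Of 24 factors that assemble the mitochondrial ribosome 7 (29.2%) fell and 2 (8.33%) rose in LC-2/ad, with a median log2 fold change of -0.03, and the share that fell was close to the 24.4% of all genes tested, of which 30.6% rose. RBFA, which helps to mature the small-subunit RNA, averaged 12.3 ± 0.243 TPM in treated and 18.2 ± 0.21 TPM in parent cells (-0.53 ± 0.06, adjusted p = 0.000235), and the rRNA methyltransferase MRM2 fell by 0.49 ± 0.05 (adjusted p = 0.000181). MTERF4, which brings a methyltransferase to the ribosome, averaged 58.3 ± 3.45 TPM in treated and 36.4 ± 2.14 TPM in parent cells, a rise of 0.67 ± 0.07 (adjusted p = 8.99e-05).

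Of 18 translation factors and RNA-binding proteins 7 (38.9%) fell and 3 (16.7%) rose, against 24.4% and 30.6% of all genes (median -0.10). SLIRP and LRPPRC, which together stabilise mitochondrial mRNAs, fell by 0.71 ± 0.06 and 0.58 ± 0.06 (adjusted p of 3.67e-05 and 7.62e-05), and the elongation factor GFM1 by 0.41 ± 0.07 (adjusted p = 0.00169). SLIRP averaged 132 ± 2.63 TPM in treated and 216 ± 17.5 TPM in parent cells. Of 20 mitochondrial aminoacyl-tRNA synthetases and related enzymes, which charge tRNAs with amino acids, 7 (35%) fell and 1 (5%) rose (median -0.11). MARS2 and YARS2 fell by 0.68 ± 0.08 and 0.52 ± 0.10 (adjusted p of 0.000304 and 0.00324).

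Of 11 tested regulators of mitochondrial gene expression 8 (72.7%) fell and 0 rose, against the same 24.4% and 30.6% (median -0.28). TFAM, which packages mitochondrial DNA and acts in its transcription, averaged 23.6 ± 4.14 TPM in treated and 42.1 ± 4.04 TPM in parent LC-2/ad cells (-0.82 ± 0.13, adjusted p = 0.00104). The transcription factor MYC averaged 116 ± 3.95 TPM in treated and 182 ± 3.96 TPM in parent cells (-0.65 ± 0.04, adjusted p = 8.24e-06), and the GABP subunit GABPB1 fell by 0.40 ± 0.08 (adjusted p = 0.00463). For TFAM, MYC and GABPB1 the treated libraries lay below the parent libraries. GABPA, the other GABP subunit of the list, averaged 8.64 ± 0.375 TPM in treated and 8.64 ± 0.398 TPM in parent LC-2/ad cells. Its change was 0.00 ± 0.08 (limma adjusted p = 0.999).

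The RNAs of mitochondrial DNA itself moved the other way in LC-2/ad. All 13 mRNAs tested rose, by 0.35 to 0.77 on the log2 scale, against 30.6% of all genes tested that rose. The ribosomal RNAs were not among the genes tested. MT-ND1, of respiratory complex I, averaged 4906 ± 233 TPM in treated and 2880 ± 48.3 TPM in parent cells (0.77 ± 0.04, adjusted p = 2.41e-06). MT-CO3 and MT-CO2, of cytochrome oxidase, rose by 0.75 ± 0.02 and 0.71 ± 0.03 (adjusted p of 4.86e-07 and 2.04e-06). Whether RNA quality or the library kit had a part in this shift was not tested.

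In TPC-1 no gene of the lists of assembly factors, translation factors, regulators or mitochondrial DNA passed the test (at an unadjusted p under 0.05 there were 2 of 24, 6 of 18, 1 of 10 and 2 of 13, against 21.5% of all genes tested). CARS2, the mitochondrial cysteinyl-tRNA synthetase, rose there, with 62.7 ± 0.989 TPM in treated and 52.6 ± 1.74 TPM in parent cells (0.25 ± 0.06, adjusted p = 0.0434). That call was lost when any single TPC-1 library was left out (adjusted p of 0.0683 to 0.176). The difference between the lines passed as lower in TPC-1 for all 13 mitochondrial mRNAs (median -0.73), against 14.4% of all genes tested. Its sign was opposite to that of the mitochondrial ribosomal protein genes.

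**Figure D5:**
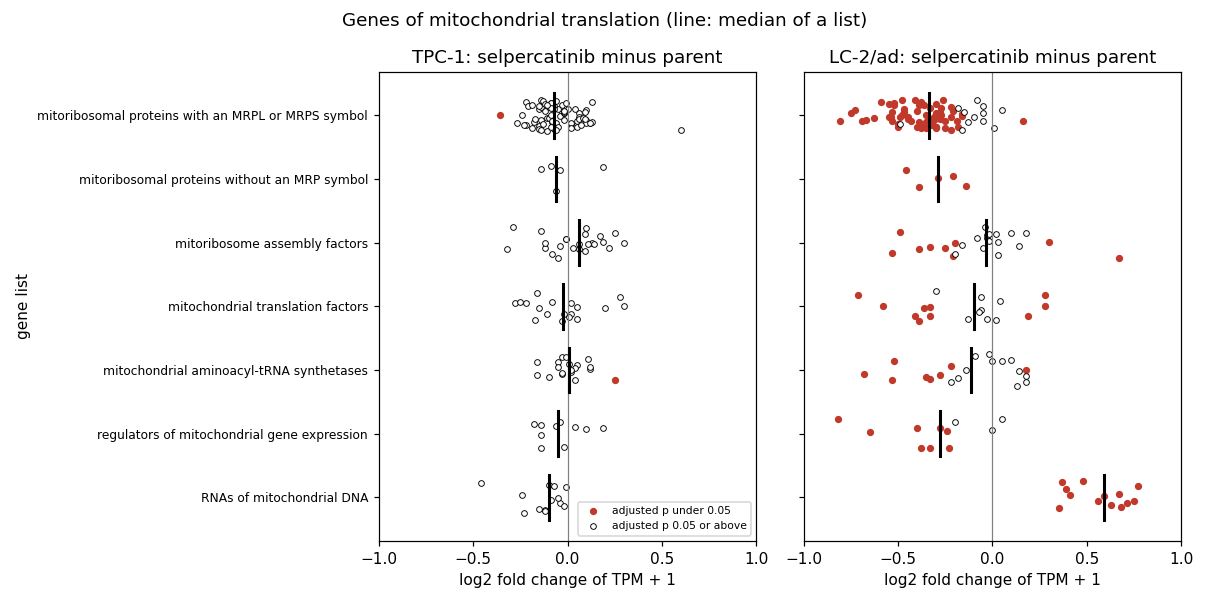
Log2 fold change of TPM + 1, treated minus parent (x axis), of each gene in 7 lists (rows) in TPC-1 (left) and LC-2/ad (right); vertical lines are list medians and filled points passed the test. In LC-2/ad the medians are -0.34 for the MRPL and MRPS genes and 0.59 for the RNAs of mitochondrial DNA, and in TPC-1 they are -0.07 and -0.10.

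Other large complexes give a measure of comparison. Over all genes tested in LC-2/ad 24.4% fell and 30.6% rose. Of 83 tested cytosolic ribosomal protein genes 58 (69.9%) fell and 3 (3.61%) rose there, with a median of -0.15. Their sum was 157394 ± 1876 TPM in treated and 171418 ± 372 TPM in parent cells, or 91.8%, against 78.4% for the mitochondrial ribosomal protein genes. Nuclear genes for complex I subunits were taken by symbol, as NDUFA, NDUFB, NDUFC, NDUFS or NDUFV followed by a number. This leaves out NDUFAB1, and whether each gene belongs to complex I was not checked. Of these 37 genes 23 (62.2%) fell and 0 rose, with a median of -0.21. Their treated sum was 85% of the parent sum. In TPC-1 the treated sums were 92.8% of the parent sum for cytosolic ribosomal proteins, 97.6% for complex I and 95.9% for the members. Of the cytosolic genes 5 (6.02%) fell there, against 1.21% of all genes tested, and 0 complex I genes passed the test. At an unadjusted p under 0.05 there were 39 of 83 cytosolic genes, 38 of them negative. For complex I there were 6 of 37, 4 of them negative, against 21.5% of all genes tested, 6.67% with a negative change. The differences between these lists were not tested.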

How the data were processed

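RNA-seq of 12 libraries was analysed, 3 in each group as the sample labels give them. The deposited values were TPM per gene, made by the authors, in a separate table for each cell line. Per the submitters' processing notes, bcl2fastq 2.20.0, Salmon and the GRCh38 build were used, without stated roles. The annotation, any filter and the use of strand are not given in the sources used here. TPM hold no read counts, so precision is the spread between libraries.

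Symbols matched 34436 of 37247 identifiers (92.5%). Gene coordinates come from GENCODE 29 (GRCh38) and promoters from RefSeq. Within each line log2(TPM + 1) was fitted over all genes with a mean of at least 1 TPM, using limma 3.58.1 with a variance trend in R 4.3.3. P-values were two-sided and Benjamini-Hochberg adjusted over all genes tested, with calls at an adjusted p under 0.05. A fold change on this scale understates the change of genes of low level. The difference between the lines was a contrast over all 12 libraries. It and the test in each line were tried on simulated data. Tables and figures used Python 3.11.15, pandas 2.3.3, numpy 2.4.6, matplotlib 3.10.9 and, in R, data.table (version 1.17.8).

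The members, lists and rules were chosen with earlier results of these data known. Named members were the 6 largest rises and falls among called members of a line (with fewer than 3 called, also the 3 largest changes), up to 4 called members per direction for the difference, a list of members of known role, and the 3 highest and 3 lowest in parent cells. Also named were members that overlap another gene where this bears on a value, the 5 ribosomal proteins with other symbols, and up to 3 called genes per list. Some genes that these rules would name are not reported here. MRPL34, the members not called in LC-2/ad, MRPL36, MRPL57 and GABPA were named after their values were seen. By annotation 12 members share exon sequence with a gene on the same strand and 21 with one on the other strand, so their values are uncertain.

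The settings varied singly were the pseudocount (0.1 or 5), the filter (none, or a mean of at least 5 TPM), median-of-ratios scaling, removal of the genes of mitochondrial DNA, no variance trend, a replicate block, each library left out in turn and, for the difference, a spread weight per line.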

Additional observations from a re-analysis of the deposited data

Results flagged for a closer look

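The treatment effect differed between the lines for 16 of 24 named members tested (limma, TPC-1 minus LC-2/ad, adjusted p under 0.05). Over all 11996 genes tested 36.6% passed, 22.2% as higher and 14.4% as lower in TPC-1. Some members were named for a called difference or a called fall in LC-2/ad. Their count and shared sign thus follow in part from that choice. In the large subunit the difference in log2 fold change was 0.76 for MRPL23, 0.68 for MRPL4, 0.66 for MRPL12, 0.65 for MRPL42, 0.61 for MRPL35 and 0.61 for MRPL51. It was 0.58 for MRPL3, 0.45 for MRPL37, 0.38 for MRPL58, 0.36 for MRPL11, 0.33 for MRPS30, 0.32 for MRPL41 and 0.23 for MRPL22. In the small subunit it was 0.58 for MRPS18C, 0.44 for MRPS24 and 0.43 for MRPS12. All are positive, since each of these genes fell in LC-2/ad and fell less or had a positive value in TPC-1. The value of MRPL23 rests on TPC-1 libraries with 0.785 to 2.65 TPM, and ranged from 0.39 to 1.07 over the alternatives. The share of RNAs of mitochondrial DNA moved with the treatment in LC-2/ad (14.6% in treated and 9.77% in parent cells), and without those genes the calls of MRPL22 and MRPL41 were lost (adjusted p of 0.198 and 0.0754). The call of MRPL41 was also lost without parent LC-2/ad library 2 or treated LC-2/ad library 1 (adjusted p of 0.0508 to 0.0519).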

How the results depend on the processing

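In LC-2/ad between 54 and 67 members were called lower under the alternatives, and 53 members in every one of them. The single rise, MRPS21, was no longer called, so that the count was 0, with no filter, median-of-ratios scaling, no variance trend, the replicate block or any library left out. The median over members in LC-2/ad was -0.31 with a pseudocount of 5, -0.43 with median-of-ratios scaling and -0.26 without the genes of mitochondrial DNA, where the log2 ratio of the sums was -0.27. In TPC-1 the count of falls was 2 with a mean of at least 5 TPM, 3 with median-of-ratios scaling, 0 with no variance trend and 1 to 3 with each library left out, and the median was -0.12 with median-of-ratios scaling. The median difference between the lines was 0.33 with median-of-ratios scaling and 0.21 without the genes of mitochondrial DNA; 29 members were called higher in every setting. The cause of these shifts was not tested. No called member changed sign.

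Members whose change was near 0 changed sign. With median-of-ratios scaling the value was -0.04 for MRPL33 and -0.08 for MRPS14 in LC-2/ad, -0.04 for MRPL58 in TPC-1 and 0.02 for the difference of MRPL10. Without the genes of mitochondrial DNA it was 0.03 for MRPL43, 0.03 for MRPS25 and 0.02 for MRPS31 in LC-2/ad, and -0.02 for the difference of MRPL15. With a library left out the value in LC-2/ad ranged from -0.14 to 0.02 for MRPL10, -0.04 to 0.11 for MRPL33, -0.05 to 0.07 for MRPS14, -0.11 to 0.00 for MRPS25, -0.30 to 0.04 for MRPS28 and -0.16 to 0.03 for MRPS31. In TPC-1 it ranged from -0.02 to 0.01 for MRPL33 and -0.03 to 0.07 for MRPL58, and for the difference from -0.12 to 0.04 for MRPL10 and -0.11 to 0.03 for MRPL33.

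Replicate numbers did not pair the libraries: deviations from the group means of libraries with the same number correlated between -0.048 and 0.054. With the replicate block 59 members were called lower in LC-2/ad, 1 in TPC-1, and 36 higher for the difference. Of the named genes, DAP3, MRPL41 and MRPS21 in LC-2/ad, CARS2 in TPC-1 and MRPL22 for the difference lost their call (adjusted p of 0.0882, 0.0535, 0.0634, 0.0762 and 0.0795). With 3 libraries per group of unknown depth, small changes of low genes cannot be resolved.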

Other observations

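The tables list 78 pseudogenes named after members of the family, which can share reads with their parent genes. Of these, 57 were at 0 in every library and 6 reached 1 TPM in at least 1 library. MRPS31P4 had 7.39, 6.472 and 4.157 TPM in treated and 5.626, 5.682 and 6.339 TPM in parent TPC-1 libraries, and 6.726, 6.221 and 5.733 TPM in treated and 6.448, 7.941 and 8.712 TPM in parent LC-2/ad libraries. MRPL42P4 was at 0 in all TPC-1 libraries and had 2.519, 3.419 and 2.541 TPM in treated and 2.463, 2.287 and 5.311 TPM in parent LC-2/ad libraries. Treated and parent libraries overlapped for MRPS31P4 and MRPL42P4 in LC-2/ad, and for MRPS31P4 in TPC-1. MRPL57P3 was at 0 in all TPC-1 and all parent LC-2/ad libraries and had 0, 2.091 and 4.57 TPM in treated LC-2/ad libraries. The gene MRPL57 had 20.9, 19.1 and 17.6 TPM in treated and 25, 25.8 and 25.2 TPM in parent LC-2/ad libraries. MRPS10P1, MRPS21P9 and MRPS31P5, which also reached 1 TPM, are not shown. How reads were shared between these loci and the genes was not tested.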
